A study of Mus musculus with 8 samples.

Results

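The data described here are the bulk RNA levels of 10 mouse genes that encode the machinery of retrograde transport in primary cilia. They are the 6 subunits of the intraflagellar transport A complex (IFT-A), encoded by Ift122, Ift140, Wdr19, Ttc21b, Wdr35 and Ift43, and 4 subunits of the cytoplasmic dynein-2 motor, encoded by Dync2h1, Dync2li1, Wdr34 and Wdr60. The genes are the named subunits of these complexes, taken by symbol and not by a threshold on their values, and all 10 were found among the 23432 genes listed in each library. The 8 libraries form 4 groups of 2. At E16.5, control embryos were compared with MOF cKO embryos (MOF fl/fl with the K14Cre transgene). At P0.5, control pups were compared with Kansl1 cKO pups (Kansl1 fl/fl with K14Cre). The K14Cre transgene deletes the floxed allele in Keratin 14-expressing epithelium, and other cells of the skin keep it. All mice were of mixed C57Bl/6J and CD-1 background. The controls carry no genotype beyond the word control in the labels, and the article's methods state that controls were littermates. All E16.5 cells carried a K14-H2BGFP reporter and were sorted from dorsal skin as living GFP-positive cells, whereas the P0.5 libraries came from whole epidermal sheets lifted off the dermis with Dispase. MOF, encoded by Kat8, is a histone acetyltransferase, and KANSL1 is a subunit of one of the complexes that hold it. The comparisons ask whether the RNA of the retrograde machinery changes when the enzyme, or this partner, is lost from skin epithelium.

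Primary cilia are built and maintained by trains of IFT particles that run along the axoneme. Kinesin-2 carries the trains outward with IFT-B as their backbone, and dynein-2 carries them back to the cell body with IFT-A. IFT-A also brings membrane proteins such as signalling receptors into the cilium together with the tubby-family protein TULP3, and loss of IFT-A or dynein-2 subunits is a known cause of skeletal ciliopathies. Within IFT-A, IFT122, IFT140 and WDR19 (IFT144) form the core, and TTC21B (IFT139), WDR35 (IFT121) and IFT43 the periphery. In dynein-2, DYNC2H1 is the heavy chain that holds the motor, DYNC2LI1 the light intermediate chain that stabilizes it, and WDR34 and WDR60 the pair of intermediate chains.

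The members lie on 6 chromosomes of mm10, with Ift43, Wdr35 and Wdr60 on chromosome 12, Ttc21b and Wdr34 on chromosome 2, and Ift140 and Dync2li1 on chromosome 17. None shares exon bases with another gene in GENCODE M21. RFX factors, which are known to regulate ciliary genes, bind the X-box, an inverted repeat of the hexamer GTTGCC, so promoters were searched for it on both strands. RefSeq promoters (GRCm38.p6), each running from 250 bases before to 50 after the start, were held for 8 of the 10 members. Ift122 and Dync2li1 had no entry. GTTGCC alone lay in 3 of these 8 (Dync2h1, Ift140 and Wdr35), beside 12.5% of 32851 promoters of the same length. The full repeat, GTTNCC and GGNAAC set 2 bases apart, lay in none of the 8 and in 0.451% of all promoters, and with a spacing of 1 base it lay in none of the 8 and in 0.271%. A looser repeat, GTNNCC and GGNNAC set 2 bases apart, lay in 1 of 8, that of Wdr19, and in 1.88%. Runs that differ from GTTGCC, AT and GGNAAC written without a gap at 3 or fewer of the 13 fixed bases, a tolerance set after the promoters had been read, were held by 3 of 8 (Wdr34, Dync2h1 and Ift140) and by 8.3% of all promoters. At 2 or fewer, 1 of 8 (Wdr34) and 2.54% held one. These motifs overlap in their letters, so a promoter can hold several of them, and a match is a description of letters only. Promoters of 6 genes are printed 5′ to 3′ on the strand of the gene. They are the 4 with a run of this kind, that of Ift43, which was the least lowered member and held none, and that of Mbd4, which also spans the start of Ift122. Capitals mark the run with at most 3 differences in Wdr34, Dync2h1 and Ift140, the looser repeat in Wdr19 and, in Mbd4, the 98 bases between the starts of Mbd4 and Ift122. The windows are chr2:30048830-30049129 on the minus strand for Wdr34, chr9:7177009-7177308 on the minus strand for Dync2h1, chr17:25015836-25016135 on the plus strand for Ift140, chr5:65199446-65199745 on the plus strand for Wdr19, chr12:86082311-86082610 on the plus strand for Ift43 and chr6:115853292-115853591 on the minus strand for Mbd4.
Wdr34: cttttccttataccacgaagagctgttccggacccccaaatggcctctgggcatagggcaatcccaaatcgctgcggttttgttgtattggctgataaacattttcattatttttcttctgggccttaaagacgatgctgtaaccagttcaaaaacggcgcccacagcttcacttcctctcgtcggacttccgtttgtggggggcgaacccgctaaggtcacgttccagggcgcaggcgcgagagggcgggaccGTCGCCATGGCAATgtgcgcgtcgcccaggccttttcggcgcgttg
Dync2h1: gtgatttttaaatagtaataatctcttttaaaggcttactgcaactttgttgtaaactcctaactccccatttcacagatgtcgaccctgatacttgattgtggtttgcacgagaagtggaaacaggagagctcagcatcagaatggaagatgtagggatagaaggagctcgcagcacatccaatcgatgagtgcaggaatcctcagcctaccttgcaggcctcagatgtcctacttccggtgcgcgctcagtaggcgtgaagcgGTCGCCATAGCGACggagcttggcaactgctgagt
Ift140: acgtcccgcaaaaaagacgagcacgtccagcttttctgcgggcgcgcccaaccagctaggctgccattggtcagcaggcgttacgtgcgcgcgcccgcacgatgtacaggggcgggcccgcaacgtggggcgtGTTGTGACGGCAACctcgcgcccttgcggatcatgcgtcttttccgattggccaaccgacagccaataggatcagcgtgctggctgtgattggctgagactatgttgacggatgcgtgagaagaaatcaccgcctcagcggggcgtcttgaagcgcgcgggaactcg
Wdr19: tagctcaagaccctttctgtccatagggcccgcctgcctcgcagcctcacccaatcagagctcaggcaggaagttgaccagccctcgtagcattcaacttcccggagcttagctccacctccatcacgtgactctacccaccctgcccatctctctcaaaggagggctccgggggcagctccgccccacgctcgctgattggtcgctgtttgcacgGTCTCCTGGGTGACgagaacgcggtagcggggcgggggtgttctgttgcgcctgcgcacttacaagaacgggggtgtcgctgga
Ift43: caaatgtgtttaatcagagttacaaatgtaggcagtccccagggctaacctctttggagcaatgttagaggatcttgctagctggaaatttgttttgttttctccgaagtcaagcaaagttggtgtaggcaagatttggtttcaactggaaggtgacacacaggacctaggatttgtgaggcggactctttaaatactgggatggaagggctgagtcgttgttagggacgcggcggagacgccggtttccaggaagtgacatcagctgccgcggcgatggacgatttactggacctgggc
Mbd4: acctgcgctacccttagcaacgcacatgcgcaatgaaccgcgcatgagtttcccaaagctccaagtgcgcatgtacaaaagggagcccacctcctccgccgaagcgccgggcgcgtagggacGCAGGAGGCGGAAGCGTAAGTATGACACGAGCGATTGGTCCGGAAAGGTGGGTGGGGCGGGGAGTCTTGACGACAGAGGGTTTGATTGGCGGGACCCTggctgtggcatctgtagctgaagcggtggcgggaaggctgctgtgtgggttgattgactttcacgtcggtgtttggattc

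The marked run began 4 bases after the start in Wdr34 and 15 bases after it in Dync2h1. It began 117 bases before the start in Ift140 and 34 bases before it in Wdr19. The RefSeq start of Dync2h1 used here lies 7388 bases from the outermost GENCODE start, so the window describes an inner start. The GC content of the members' promoters ranged from 48.3% to 67%, with a median of 58%, beside a median of 52.7% over all promoters.

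Counts on genes ranged from 22484018 to 27561688 per library at E16.5 and from 9108709 to 19774643 at P0.5, so that 1 count stood for 0.0326 to 0.0502 and for 0.0484 to 0.115 CPM, the counts scaled to a common library size. Epithelial markers were abundant in every library, with summed levels of 36788 to 46164 CPM at E16.5 and 53726 to 82721 CPM at P0.5. Counts of the targeted gene do not resolve the deleted exons, so they check nothing about the deletion: Kat8 had a log2 fold change of -0.14 in MOF cKO (adjusted p = 0.554) and Kansl1 -0.52 in Kansl1 cKO (adjusted p = 0.242, edgeR). The libraries were not matched for sex, with Xist at 1517.5 CPM in E16.5 control replicate 1 and 9.99 to 12.0 CPM in the other 3 libraries of that stage. At P0.5 the lone low library was control replicate 2, with 1.23 CPM of Xist against 371 to 427 CPM elsewhere.

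The RNA of the retrograde machinery was lower in MOF cKO than in control epithelium at E16.5. Of the 10 genes, 7 fell past both thresholds, an adjusted p of 0.01 or lower in edgeR's quasi-likelihood test and a fold change over 1.5, and none rose. Over all 13956 genes tested, 9.59% were called lower and 10% higher. By complex, the calls were 5 of 6 IFT-A genes and 2 of 4 dynein-2 genes. In all 10 genes the higher MOF cKO library was under the lower control, which held for 37.7% of all genes. The median log2 fold change was -1.29 over the 10 members, -1.68 over IFT-A and -1.21 over the dynein-2 subunits, beside -0.02 over all genes tested. In sum, the 10 genes took 8101 and 7536 counts of the controls against 2323 and 2543 of the MOF cKO libraries. Without E16.5 control replicate 1, the library that stood apart in Xist, 6 members were called lower.

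Markers of some other cells moved with the genotype at E16.5, and epithelial markers moved in both directions. Of 8 epithelial markers 1 was called lower and 2 higher in MOF cKO, beside 9.59% and 10% of all genes tested. Of 10 macrophage markers 6 were called higher in MOF cKO, and their summed level was 19.4 and 45.2 CPM in control against 99.6 and 129 CPM in MOF cKO. The 7 fibroblast markers summed to 917 and 1552 CPM in control against 1541 and 2150 CPM in MOF cKO, with none called. Of 5 endothelial markers 1 was called higher, with sums of 6.16 and 7.22 CPM against 10.8 and 22.3 CPM. The sums overlapped between genotypes for fibroblasts. They did so too for melanocytes (14.4 and 42.5 CPM against 16.4 and 64.2 CPM) and Schwann cells (4.79 and 17.6 CPM against 8.18 and 29.2 CPM). Of 3 markers of multiciliated cells 1 was tested and called lower, and their sum was 2.05 and 1.41 CPM in control against 0 and 0.169 CPM in MOF cKO. The multiciliated markers were thus low in every library, at 2.05 CPM or less, and near 0 in MOF cKO. The 1 tested had a log2 fold change of -8.06. Every list had all its markers above a mean of 1 count at E16.5. The part of these cells in the fall of the members was not tested. In bulk RNA, fewer cells that express a gene and less of its RNA per cell cannot be told apart.

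**Figure D1:**
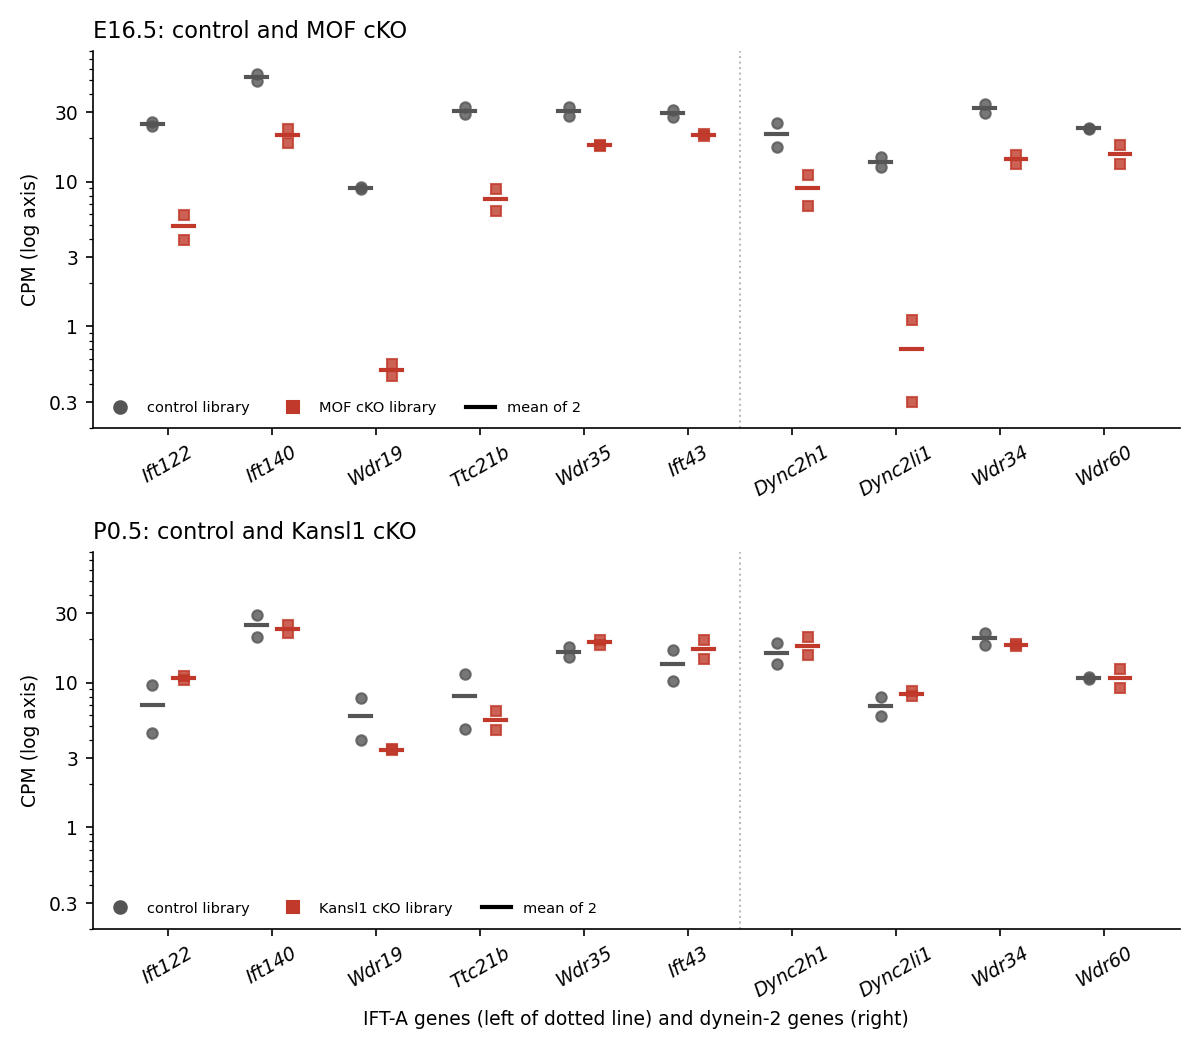
Level of each gene in every library in CPM on a log axis, at E16.5 (top) and P0.5 (bottom). Points are libraries and horizontal bars the mean of 2. At E16.5 every MOF cKO library sits below both controls, with Wdr19 and Dync2li1 lowest at 0.301 to 1.10 CPM. At P0.5 the libraries of both genotypes overlap for most genes.

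Among the IFT-A core genes, Wdr19 fell most. Wdr19 (chr5:65199696-65260415, plus strand) was counted 283 and 247 times in control against 9 and 13 times in MOF cKO. These were 9.23 and 8.92 CPM against 0.452 and 0.551 CPM. The replicates of each genotype were close to each other, and the groups lay far apart. The log2 fold change was -4.16 (SE 0.375, 95% interval -5.04 to -3.28, adjusted p = 0.000539, edgeR), a 17.9-fold lower level. At 9 counts the exact Poisson interval alone spans 0.207 to 0.858 CPM and at 13 counts 0.293 to 0.941 CPM. This interval covers counting error only.

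Ift122 (chr6:115853470-115926699, plus strand), which encodes a core subunit known to restrain Hedgehog signalling, was counted 742 and 713 times in control against 118 and 93 times in MOF cKO. After scaling these were 24.2 and 25.7 CPM against 5.92 and 3.94 CPM, so that 19.7% of the control mean remained. The log2 fold change was -2.35 (SE 0.236, adjusted p = 0.000691, edgeR). Ift140 (chr17:25016085-25099495, plus strand), the most abundant member by CPM in control and a cause of skeletal and retinal ciliopathy when mutated, had 49.2 and 55.6 CPM in control and 18.6 and 23.1 CPM in MOF cKO. It fell less than the other core genes, by 1.33 on the log2 scale (SE 0.157, adjusted p = 0.00106, edgeR). The 95% interval of Ift140, -1.70 to -0.96, did not overlap those of Ift122 (-2.90 to -1.79) or Wdr19.

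The peripheral IFT-A genes spanned a wide range. Ttc21b (chr2:66184327-66256617, minus strand), whose product is needed for retrograde transport, had 29.3 and 32.6 CPM in control and 8.83 and 6.31 CPM in MOF cKO, for a log2 fold change of -2.03 (SE 0.207, adjusted p = 0.000711, edgeR). Wdr35 (chr12:8973892-9028847, plus strand) had 32.9 and 28.2 CPM in control and 17.7 and 18.0 CPM in MOF cKO, for a log2 fold change of -0.78 (SE 0.154, adjusted p = 0.00723, edgeR). This call was lost when a library was left out. Without E16.5 control replicate 1 the adjusted p was 0.0348, without MOF cKO replicate 1 0.0178 and without MOF cKO replicate 2 0.0144. Ift43 (chr12:86082541-86162459, plus strand), the smallest IFT-A subunit, had 28.0 and 31.4 CPM in control and 20.5 and 21.4 CPM in MOF cKO. The groups did not overlap, but the log2 fold change of -0.50 (SE 0.146, adjusted p = 0.0302, edgeR) passed neither threshold.

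Of the dynein-2 subunits, the light intermediate chain had the lowest value. Dync2li1 (chr17:84626496-84655588, plus strand) was counted 386 and 411 times in control against 6 and 26 times in MOF cKO, which gave 12.6 and 14.8 CPM against 0.301 and 1.10 CPM. The log2 fold change was -4.24 (SE 0.493, 95% interval -5.40 to -3.09, adjusted p = 0.00100, edgeR). Both MOF cKO libraries were far below control, but they differed from each other, with exact Poisson intervals of 0.111 to 0.656 and 0.719 to 1.61 CPM that did not overlap. Leaving out a library moved the log2 fold change between -5.49 and -3.64. Dync2li1 and Wdr19 ranked 54 and 58 among the 13956 genes ordered from the most lowered, and 5.11% and 5.52% of their control means remained.

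The intermediate chains fell less. Wdr34 (chr2:30031546-30048881, minus strand) had 29.9 and 34.4 CPM in control and 15.4 and 13.3 CPM in MOF cKO, for a log2 fold change of -1.17 (SE 0.164, adjusted p = 0.00197, edgeR). In a test against a 1.5-fold change its adjusted p was 0.0150, so that call was lost there. Wdr60 (chr12:116206262-116263022, minus strand) had 23.5 and 23.1 CPM in control and 17.8 and 13.2 CPM in MOF cKO. Its log2 fold change of -0.59 (SE 0.189, adjusted p = 0.0437, edgeR) did not pass.

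The heavy chain gene Dync2h1 (chr9:6928503-7184446, minus strand) varied most between control libraries. It was counted 777 and 478 times in control against 222 and 161 times in MOF cKO, or 25.3 and 17.3 CPM against 11.1 and 6.82 CPM. The groups did not overlap, but the log2 fold change of -1.25 (SE 0.291, adjusted p = 0.0135, edgeR) missed the threshold on p. DESeq2 gave an adjusted p of 0.000675 for Dync2h1 and called 8 of the 10 members lower, beside 12.4% of all genes. Without E16.5 control replicate 2, the lower control library, edgeR gave an adjusted p of 0.000204, and without MOF cKO replicate 1 it gave 0.00411.

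**Figure D2:**
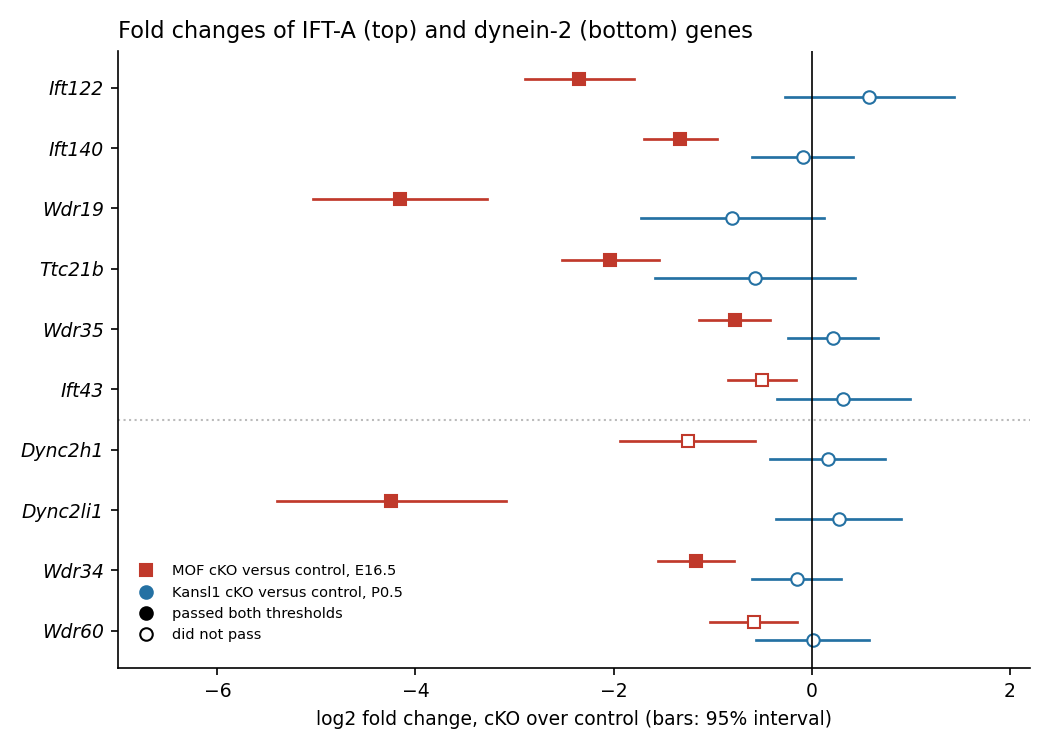
Log2 fold change of each gene, cKO over control, with its 95% interval from edgeR. Filled points passed both thresholds. In MOF cKO (squares) the estimates run from -4.24 to -0.50. In Kansl1 cKO (circles) they run from -0.80 to 0.58 and every interval spans 0.

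The members did not fall by a common factor in MOF cKO. Of the 45 pairs of members, 25 had 95% intervals of the log2 fold change that did not overlap. Dync2li1 and Wdr19 each stood apart from the 8 remaining members, and Ift122 from 7. Control levels of the 10 genes lay between the 34.0 percentile (Wdr19) and the 72.0 percentile (Ift140) of all genes tested.

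**Figure D3:**
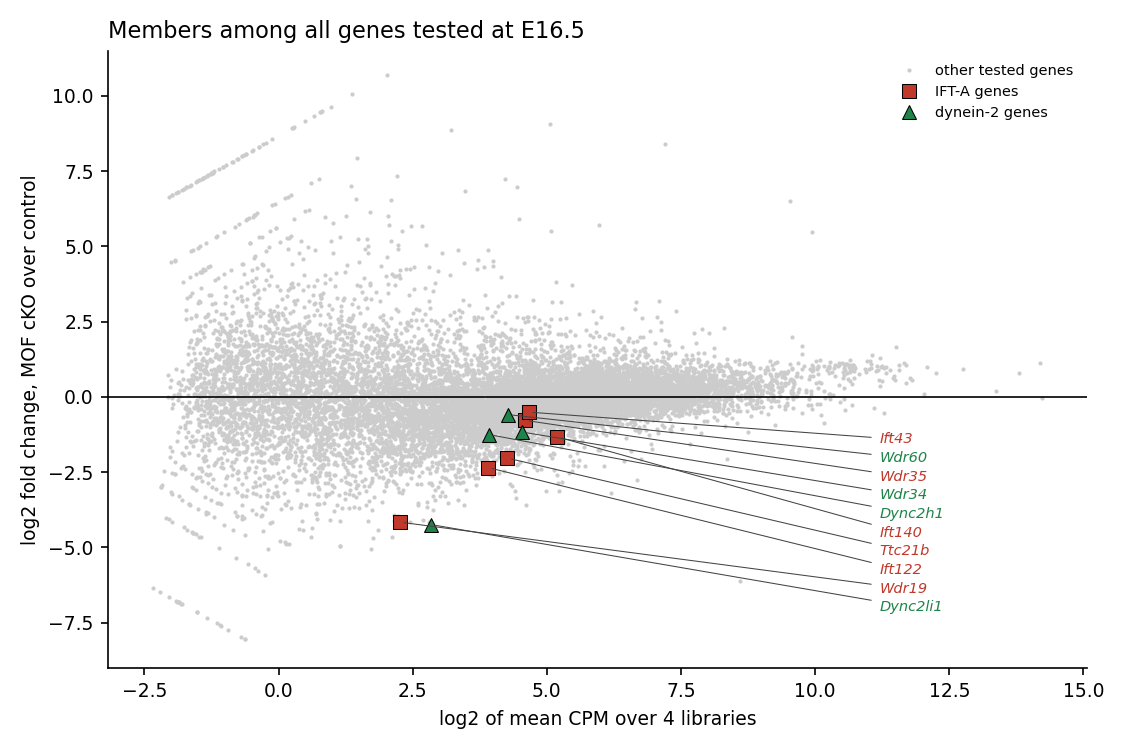
Log2 fold change in MOF cKO against the log2 of mean CPM for all 13956 genes tested at E16.5 (grey), with IFT-A genes as squares and dynein-2 genes as triangles. All 10 lie below 0, and Wdr19 and Dync2li1 lie near the lower edge of the cloud.

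Levels of different genes were compared per kilobase of the longest coding transcript. In E16.5 control cells Ift43 was highest at 38.0 ± 3.07 CPM per kilobase (SD, n = 2), followed by Wdr34 at 17.7 ± 1.77 and Dync2li1 at 10.1 ± 1.17. Ift140, Ttc21b, Wdr35, Wdr60 and Ift122 followed between 7.55 and 6.06 CPM per kilobase, and no neighbours in this order differed by more than their summed SDs. Dync2h1, at 1.49 ± 0.401 CPM per kilobase, and Wdr19, at 1.45 ± 0.0352, were lowest and did not differ beyond their spread. In MOF cKO, Ift43 (26.8 ± 0.772 CPM per kilobase) and Wdr34 (7.90 ± 0.804) kept the top ranks. Dync2li1 dropped from rank 3 to rank 9, at 0.518 ± 0.418 CPM per kilobase, within the spread of Dync2h1 at 0.630 ± 0.214. Wdr19 was last at 0.0798 ± 0.0111 CPM per kilobase.

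In P0.5 control epidermis Ift43 (17.2 ± 5.75 CPM per kilobase, SD, n = 2), Wdr34 (11.1 ± 1.52) and Dync2li1 (5.07 ± 1.07) again held the first 3 ranks, and Dync2h1 and Wdr19 the last 2. Wdr34 and Dync2li1 were the only neighbours in this order that differed by more than their summed SDs. The 2 stages differ in isolation and sequencer, so the stage itself cannot be told apart from these. In Kansl1 cKO epidermis the order began with the same 3 genes, led by Ift43 at 21.8 ± 4.54 CPM per kilobase, and ended with Wdr19 at 0.548.

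**Figure D4:**
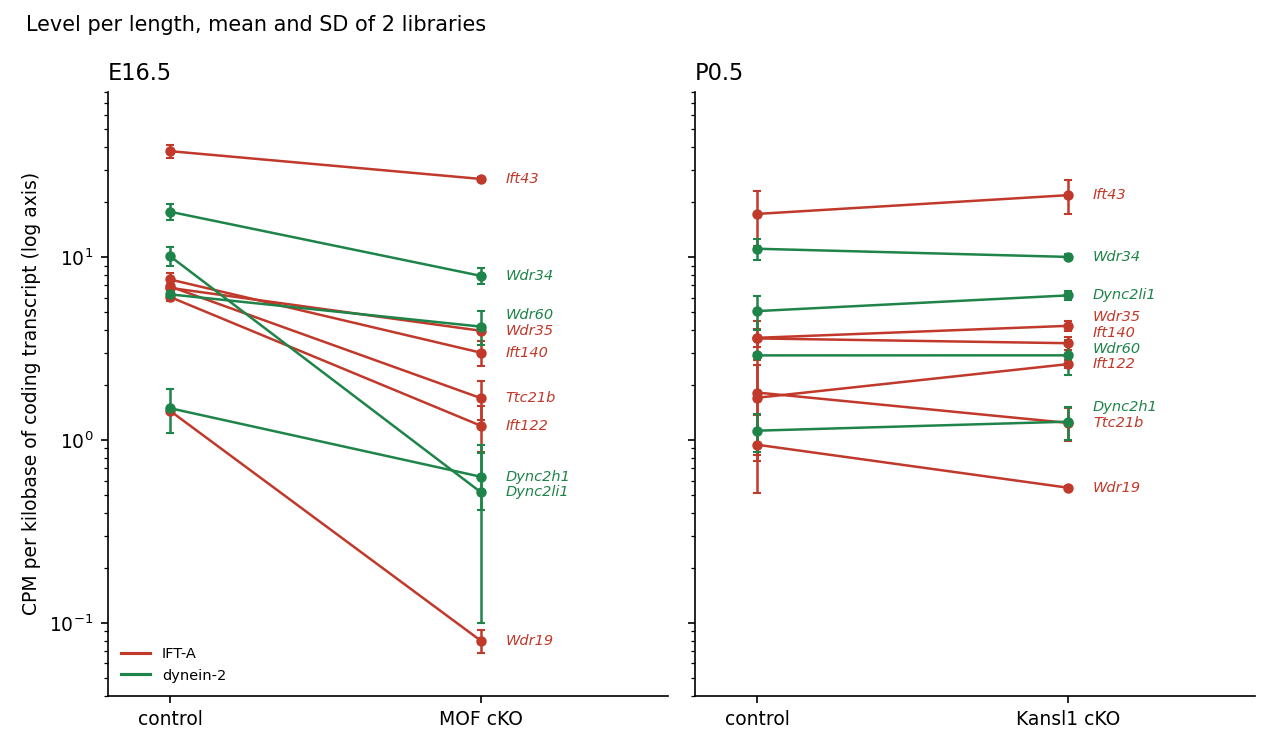
Mean level per kilobase of coding transcript (log axis) in control and cKO cells, with the SD of 2 libraries as error bars and a line for each gene. At E16.5 the line of Dync2li1 crosses those of 6 other genes on its way from 10.1 to 0.518. At P0.5 Ift43, Wdr34 and Dync2li1 stay on top in both genotypes.

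No member changed in Kansl1 cKO epidermis at P0.5 under the thresholds. None of the 10 was called in either direction by edgeR's quasi-likelihood test, and the background was the same, with 0% of the 13031 genes called lower and 0% called higher. At an unadjusted p under 0.05 in the same edgeR test the members again counted 0, beside 8.26% of all genes lower and 7.43% higher. With these shares, 0 among 10 genes says little. DESeq2 called 0 members at the same thresholds, beside 0.573% of genes called lower and 0.304% called higher. The median log2 fold change was 0.08 over the members and 0.01 over all genes.

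Wdr19 had the lowest estimate in Kansl1 cKO as well as being among the lowest in MOF cKO. It was counted 35 and 121 times in control against 72 and 43 times in Kansl1 cKO, or 4.01 and 7.82 CPM against 3.49 and 3.40 CPM. It was the only member with both Kansl1 cKO libraries below both controls, which held for 22.7% of all genes. The log2 fold change was -0.80 (SE 0.388, 95% interval -1.73 to 0.12, adjusted p = 0.369, edgeR), so the interval holds both no change and a value of -1.73.

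For Dync2li1 the P0.5 values lay the other way. It had 5.84 and 7.89 CPM in control and 8.04 and 8.69 CPM in Kansl1 cKO, for a log2 fold change of 0.27 (SE 0.266, 95% interval -0.36 to 0.90, adjusted p = 0.665, edgeR). Ift122 had 4.47 and 9.57 CPM in control and 11.1 and 10.4 CPM in Kansl1 cKO, where its log2 fold change was 0.58 (SE 0.359, adjusted p = 0.481, edgeR). Together with Wdr35 (131 and 272 counts in control, 409 and 229 in Kansl1 cKO, log2 fold change 0.21) these were the 3 members with both Kansl1 cKO libraries above both controls, which held for 26% of all genes. None passed the test.

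The spread between the P0.5 control libraries was wide for several members. Ttc21b had 4.81 and 11.4 CPM in control and 6.35 and 4.74 CPM in Kansl1 cKO, where its log2 fold change was -0.57 and a 95% interval of -1.58 to 0.44. Control replicate 1, the shallowest library, was below control replicate 2 for all members but Wdr60. The remaining 6 members had overlapping groups and log2 fold changes between -0.57 (Ttc21b) and 0.32 (Ift43). Dync2h1 was at 0.16 with an interval of -0.42 to 0.74, Ift140 at -0.09 with one of -0.60 to 0.42, Wdr34 at -0.15 with one of -0.60 to 0.30, and Wdr60 at 0.01 with one of -0.56 to 0.58.

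The 2 contrasts were set against each other in a fit over all 8 libraries, as the difference of the MOF and Kansl1 effects. It passed an adjusted p of 0.01 for 3 of 10 members, all below 0, beside 1.17% of 14565 genes that passed below 0. The difference was -4.54 for Dync2li1 (SE 0.590, adjusted p = 0.00379, edgeR), -3.38 for Wdr19 (SE 0.548, adjusted p = 0.00746) and -2.95 for Ift122 (SE 0.474, adjusted p = 0.00717). For the other 7 members the difference was between -1.49 (Ttc21b, adjusted p = 0.0836) and -0.63 (Wdr60, adjusted p = 0.213) and did not pass. The 3 calls depended on single libraries, but a fit without 1 library leaves only 1 in that group. Calls lost in such fits therefore do not show that 1 library made the difference. Leaving out each library in turn, the difference was -5.64 to -3.94 for Dync2li1, -3.98 to -3.003 for Wdr19 and -3.66 to -2.54 for Ift122. The deleted gene, the stage, the isolation and the sequencer change together between the experiments and cannot be told apart.

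Of the genes that share a start region with a member on the opposite strand within 1000 bases, Mbd4, a DNA glycosylase gene whose GENCODE start lies 99 bases from that of Ift122, fell in MOF cKO with it. Mbd4 had 17.0 and 19.1 CPM in control and 5.27 and 6.44 CPM in MOF cKO, for a log2 fold change of -1.62 (SE 0.213, adjusted p = 0.00153, edgeR). Cramp1l, whose start lies 297 bases from that of Ift140, did not pass (log2 fold change -0.11, adjusted p = 0.561). Dcun1d5, whose start lies 74 bases from the outermost GENCODE start of Dync2h1, rose in MOF cKO (log2 fold change 0.80, SE 0.124, adjusted p = 0.00283) where Dync2h1 had -1.25. In Kansl1 cKO the log2 fold changes of these 3 neighbours were -0.17, -0.05 and 0.16, and none passed.

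The light chains of dynein-2 are mostly shared with dynein-1, and as a list they held no call in MOF cKO. Of 10 listed, 8 were tested, 0 were called and the median log2 fold change was -0.37. The list moved in both directions, with 5 genes below 0 and 3 above it, from -2.14 to 0.52. With 9.59% of all genes called lower and 10% called higher, 0 calls among 8 genes says little. Tctex1d2, the light chain particular to dynein-2, was the lowest, counted 129 and 123 times in control against 23 and 19 times in MOF cKO. Its log2 fold change of -2.14 (SE 0.461, adjusted p = 0.0101, edgeR) missed the threshold on p by a small margin, and DESeq2 gave 0.00151. Dynlt1f, at -0.90 (adjusted p = 0.153), is one of several near-identical copies. Reads with more than 1 alignment, 8.57% to 10.1% of reads at E16.5, were counted for no gene, so the counts of Dynlt1f could miss some. In Kansl1 cKO, Tctex1d2 had 7.56 and 6.14 CPM in control and 3.88 and 3.71 CPM in Kansl1 cKO, for a log2 fold change of -0.84 (SE 0.293, adjusted p = 0.258), and Dynlt1f had 0.58.

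Dynein-1, which serves transport in the cytoplasm, held no call either. Of its 5 own subunits 4 were tested, 0 were called and the median log2 fold change in MOF cKO was 0.01. With 9.59% of all genes called lower and 10% called higher, 0 calls among 4 genes says little. The heavy chain gene Dync1h1 had 765 and 659 CPM in control and 658 and 499 CPM in MOF cKO, for a log2 fold change of -0.30 (adjusted p = 0.155), and Dync1li1 had 0.30 (adjusted p = 0.173). In Kansl1 cKO 0 of 4 were called and the median was 0.05, with Dync1li2 at 0.34 and Dync1h1 at 0.08.

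Adapters and cargo of IFT-A held 1 call in each list, which for lists of 4 and 6 tested genes is near the background of 9.59% called lower and 10% called higher. Of the tubby-family genes 4 of 5 were tested in MOF cKO and 1 was called lower, Tulp1, which had 41 and 31 counts in control and 0 in both MOF cKO libraries. Tulp3, the adapter known to link IFT-A to membrane proteins, had 55.8 and 54.1 CPM in control and 41.1 and 45.1 CPM in MOF cKO, for a log2 fold change of -0.35 (adjusted p = 0.0524). Of 8 membrane cargo genes 6 were tested, with a median of -0.45, and 1 was called lower, Pkd2, the polycystin channel gene, with a log2 fold change of -1.07 (SE 0.174, adjusted p = 0.00345). In Kansl1 cKO none of the tubby or cargo genes passed. Tulp3 was at 0.49, Tulp4 at 0.45, Smo at 0.41 and Arl13b at 0.16.

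Most genes of the anterograde machinery were lower in MOF cKO as well. Of 18 IFT-B genes 17 were tested and 14 were called lower, with a median log2 fold change of -1.24. Over all genes tested, 9.59% were called lower and 10% higher. The lowest were Ttc30b at -4.83, Ttc26 at -4.12, Ift57 at -3.58 and Ift80 at -2.64. Of the 5 kinesin-2 genes 4 were called lower, namely Kifap3 at -2.23, Kif3c at -1.99, Kif3a at -1.68 and Kif3b at -1.46. The median of the 5 was -1.68. Ift20 and Kif17, named after their values were seen, lay above 0, at 0.44 (adjusted p = 0.0465) and 1.33 (adjusted p = 0.0555), and did not pass. For each of them both MOF cKO libraries lay over both controls, which held for 4867 of all 13956 genes tested. Of 8 RFX factor genes 5 were tested, none was called lower and 1 was called higher, Rfx1 (log2 fold change 0.64, SE 0.137, adjusted p = 0.00970). Beside the shares over all genes, 1 call among 5 genes says little. In Kansl1 cKO none of these genes passed. The medians were -0.27 for IFT-B (Traf3ip1 at -1.37, Ttc30a1 at -0.89), -0.13 for kinesin-2 (Kifap3 at -0.46, Kif3c at 0.33) and 0.31 for the RFX factors (Rfx3 at 1.02, Rfx5 at 0.63).

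**Figure D5:**
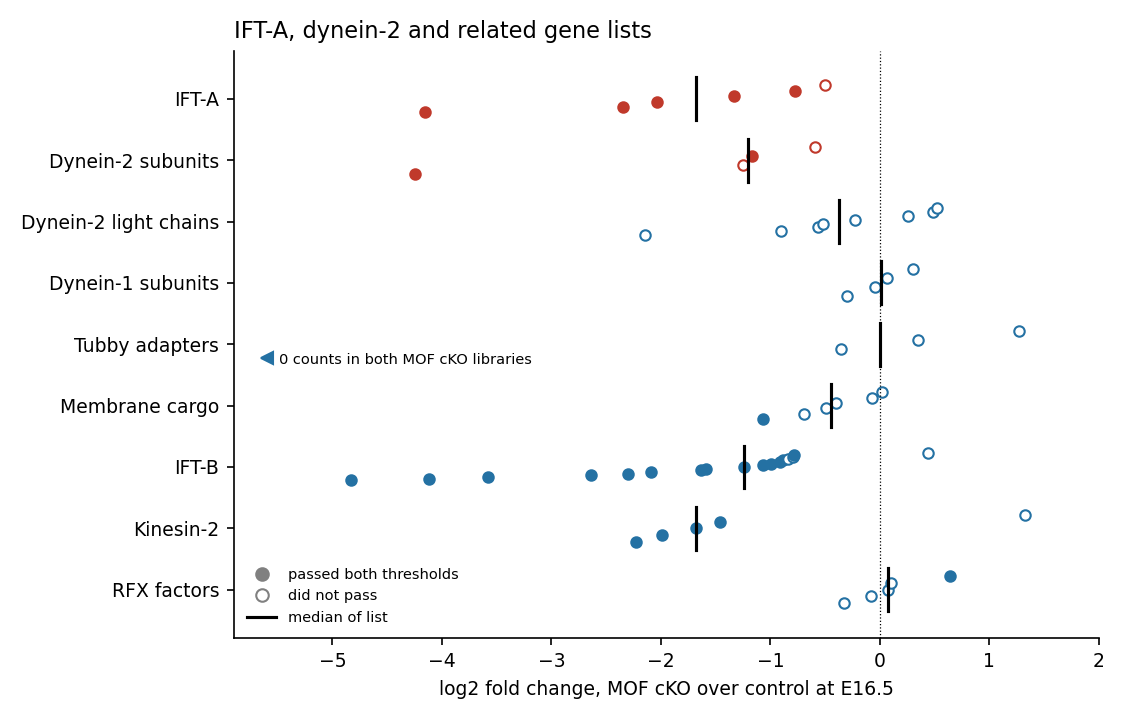
Log2 fold change in MOF cKO of each tested gene, by list, with the median of the list as a vertical bar and filled points for genes that passed both thresholds. IFT-A, dynein-2, IFT-B and kinesin-2 have medians of -1.68, -1.21, -1.24 and -1.68, and dynein-1 has a median of 0.01. The triangle is Tulp1, for which no fold change is drawn.

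At P0.5 the summed macrophage markers were 183 and 209 CPM in control and 269 and 295 CPM in Kansl1 cKO, and the melanocyte markers 452 and 494 CPM against 948 and 1084 CPM. The fibroblast markers were 1748 and 1092 CPM in control and 926 and 739 CPM in Kansl1 cKO. The Schwann cell markers summed to 16.7 and 27.3 CPM in control and 52.5 and 40.3 CPM in Kansl1 cKO, and the endothelial markers to 6.65 and 4.01 CPM against 3.44 and 2.92 CPM. The genotypes did not overlap in any of these 5 sums. Among single genes, both Kansl1 cKO libraries lay below both controls for 22.7% and above them for 26%. The sums did overlap for epithelial markers, at 82721 and 53726 CPM in control against 55711 and 77922 CPM in Kansl1 cKO. They also overlapped for multiciliated markers, at 0.229 and 0.323 CPM against 0.339 and 0.237 CPM. No single marker passed the test, which called 0 of all 13031 genes in either direction at this stage. The part of these cells in the members' values was not tested.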

How the data were processed

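Polyadenylated RNA of 8 libraries was sequenced. The authors aligned the paired reads to mm10 (HISAT2 in the article, TopHat2 in the submitters' processing notes), counted reads per gene with HTSeq and deposited those counts without normalization. The strand setting and annotation are not given in the sources used here. Rows that name no gene held 21.1% to 26% of reads and were left out. Counts were filtered with filterByExpr, scaled with TMM factors and tested per experiment in R 4.3.3 with edgeR 4.0.16 (quasi-likelihood test, Benjamini-Hochberg adjustment over all genes tested), two-sided, and called at adjusted p up to 0.01 with over 1.5-fold change. CPM are these scaled counts. The alternatives were DESeq2 1.42.0, edgeR's likelihood ratio and 1.5-fold tests, other scalings, filters and thresholds, a replicate block, 1 fit over all libraries and leaving out each library. The members and lists were chosen with earlier results of these data known. Named genes are all members, Tctex1d2, Tulp3, the targeted genes, genes that start within 1000 bases on the opposite strand, and of each list up to 4 called genes, or the 2 largest changes where none was called. The methods speak of 2 pairs of samples per experiment and do not say whether each is 1 animal, so p-values measure only the spread between libraries. In counts simulated over the 13956 genes tested at E16.5, 73.2% of 4-fold and 38.1% of 2-fold changes were recovered, and over the 13031 at P0.5, 86.0% and 12.0%. Each fold was judged on few changed genes, 97 at E16.5 and 100 at P0.5. In the E16.5 data 1338 genes were called lower and 1395 higher. The share of changed genes enters the adjustment, so the simulated recovery at E16.5 need not be that of the real comparison.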

Additional observations from a re-analysis of the deposited data

Results flagged for a closer look

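The effects of the 2 deletions differed, by a test of the difference itself, for 3 members. The MOF effect minus the Kansl1 effect on the log2 scale was -4.54 for Dync2li1, -3.38 for Wdr19 and -2.95 for Ift122. Dync2li1 was lower in 2 of 2 MOF cKO libraries and higher in 2 of 2 Kansl1 cKO libraries than in their controls, and so was Ift122. Wdr19 was lower in all 4. Over all genes, both libraries lay below both controls for 37.7% in MOF cKO and 22.7% in Kansl1 cKO, and above for 26% in Kansl1 cKO. None of the 3 members passed the test in Kansl1 cKO. The calls of a difference depended on single libraries, but a fit without 1 library leaves only 1 in that group. A call lost there does not show that 1 library made the difference. With each library left out in turn, the differences were -5.64 to -3.94 (Dync2li1), -3.98 to -3.003 (Wdr19) and -3.66 to -2.54 (Ift122). The deletion, the stage, the isolation and the sequencer cannot be told apart in these differences.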

How the results depend on the processing

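All 10 members kept the direction of their change in MOF cKO under every alternative listed. Of 160 values of single members in MOF cKO, 143 stayed on their side of the thresholds, 12 gained a call and 5 lost one. The number of members called was 5 in a test against a 1.5-fold change (426 of 13956 genes lower), 10 with library size alone, 9 with the replicate block (2263 genes lower) and 6 to 8 without single libraries. With library size alone the median of the members was -1.60 and that of all genes -0.32, with 2743 genes called lower and 769 higher, beside 1338 and 1395 with TMM factors. Without single libraries the median of the members was -1.46 to -1.28 in MOF cKO and -0.16 to 0.24 in Kansl1 cKO. In Kansl1 cKO 0 members were called under every alternative. The number of members whose effects differ between the experiments was 6 with a likelihood ratio test (801 of 14565 genes below 0). It was 0 with the replicate block (0 genes below 0). Fits without single libraries leave 1 library in a group, and there the differences of all 10 members stayed below 0. The causes were not tested. The replicate numbers pair no samples by their labels, and deviations of same-numbered libraries correlated at 0.206 at E16.5 and -0.202 at P0.5. A crossed pairing of the P0.5 libraries, added after seeing the data, also called 0 members. Promoter matches in members were 0 for the full repeat, 1 for the looser one and 3 with at most 3 mismatches. With 2 libraries per group, 2-fold changes were mostly missed in simulated counts at P0.5, and fewer than 30 counts per library stood behind Wdr19 and Dync2li1 in MOF cKO.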
